A study of Oreochromis niloticus with 8 samples.

Results

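The genes described here were those of cold-inducible RNA-binding and high-mobility-group proteins in the midbrain of Nile tilapia (Oreochromis niloticus), a warm-water cichlid. Of 5 names looked for as gene identifiers, 2 matched a row, cirbp and ybx1, among 29533 genes in each library. The reference gene table used here lists a cirbpa and no cirbp, so which cirbp copy that row measures was not settled, and every cirbp value below is that of the row. The names hmgb2, hmgb3 and hmgn2 matched none and were not analysed here, so that high-mobility-group (HMG) genes enter only as relatives found under other names. RNA sequencing covered 4 libraries from cold-exposed fish (cold) and 4 from fish maintained at normothermy (control), the temperature being the sole labelled difference. The sources used here do not give strain, age, sex, the temperatures, the length of the exposure or the number of fish behind a library. The p-values therefore weigh the difference between cold and control against the spread between these libraries.

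CIRBP is an RNA-binding protein with an RNA recognition motif and a glycine-rich tail. It is known from mammals as a protein whose transcript rises on mild cooling, and it stabilises target mRNAs. YBX1 is a cold-shock-domain protein, a eukaryotic relative of bacterial cold-shock proteins, that coats mRNA and affects its translation and stability. HMGB proteins bend DNA through HMG boxes, and HMGN proteins bind nucleosomes directly. Both groups are abundant chromatin proteins.

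The deposited values were taken as TPM (a unit of transcript abundance), which is scaled by transcript length and library total and keeps no absolute depth. Between 17842 and 18055 genes reached 1 TPM in cold libraries and between 18165 and 18506 in control libraries. On the second principal component, which held 16.9% of the variance, control 4 and cold 2 stood apart from the other libraries. Of the matched midbrain genes 13 of 13 averaged 1 TPM or more in cold or in control, among them en1b and gata3. So did all 6 hypothalamic and all 9 neuronal genes matched, so that this does not tell midbrain from neighbouring tissue. The summed level of these midbrain markers was 93.2 to 108 TPM in cold libraries and 118 to 167 TPM in control libraries, and 6 of the 13 fell. The method limma fits a linear model to each gene and shares variance information across genes. Over all tested genes it called 23.6% as lower and 13.0% as higher in cold at an adjusted p under 0.05, 36.7% in all. The marker counts are to be read against those shares. Among the 8 marker lists the midbrain sum was the only one whose groups did not overlap, though single genes of other lists did separate. Neuronal markers, led by snap25 and stmn2a, summed to 5661 to 6346 TPM in cold and 6026 to 6568 TPM in control libraries (2 of 9 fell). Of these, elavl3 had 124 ± 9.77 TPM in cold and 165 ± 13.7 TPM in control (SD, n = 4 each; limma adjusted p = 0.00388). The level of elavl4 was 103 ± 16.7 TPM in cold and 165 ± 11.6 TPM in control (limma adjusted p = 0.00226). Radial glial markers, led by fabp7 and fabp7a, summed to 2222 to 3328 TPM in cold and 2358 to 2727 TPM in control libraries (1 of 6 fell). The fall was that of sox2, with 23.9 ± 4.64 TPM in cold and 44.5 ± 3.50 TPM in control (limma adjusted p = 0.000814). Microglial markers summed to 1282 to 1437 TPM in cold and 938 to 1498 TPM in control libraries (2 of 3 fell), a sum made up mostly of apoeb (1330 ± 70.6 TPM in cold and 1133 ± 230 TPM in control; SD, n = 4 each), which did not pass. The other two fell without overlap between the groups. The microglial receptor gene p2ry12 had 2.25 ± 0.589 TPM in cold and 25.2 ± 4.67 TPM in control (log2 change -3.01, limma adjusted p = 9.86e-06), and csf1r had 9.53 ± 0.967 TPM in cold and 13.3 ± 1.61 TPM in control (limma adjusted p = 0.0110). Markers of dividing cells, led by ube2c and cdk1, were low, with sums of 16.9 to 21.0 TPM in cold and 15.6 to 18.7 TPM in control libraries (1 of 8 rose). Markers of neighbouring tissue and blood varied several-fold within both groups. Hypothalamic markers, led by oxt and avp, summed to 1019 to 5267 TPM in cold and 631 to 2844 TPM in control libraries (1 of 6 fell). That sum was made up mostly of oxt and avp. The gene that fell, nkx2.4a, had 5.97 ± 0.774 TPM in cold and 25.7 ± 1.40 TPM in control, without overlap (log2 change -1.94, limma adjusted p = 4.26e-06). Red blood cell markers, led by alas2 and slc4a1a, summed to 23.0 to 112 TPM in cold and 14.5 to 89.4 TPM in control libraries. Pituitary markers, led by lhb and cga, summed to 0.657 to 7.07 TPM in cold and 0.148 to 18.7 TPM in control libraries. Names without a match are not in these sums, among them the globin genes hba and hbb and the microglial c1qa and mpeg1. The part of these cell types in the results below was not tested, and in whole tissue fewer cells of a type cannot be told apart from less RNA per cell.

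The level of cirbp about doubled in cold. It stood at 4672, 4832, 5205 and 5606 TPM in cold libraries 1 to 4, against 2542, 2698, 2434 and 2242 TPM in control libraries 1 to 4. The groups did not overlap, and the lowest cold library lay well above the highest control library. Absence of overlap, by any margin, was found in 36.9% of all tested genes, 13.4% with cold above and 23.4% with cold below control. The mean was 5079 ± 416 TPM in cold and 2479 ± 192 TPM in control (SD, n = 4 each). Its log2 change (mean log2(TPM + 1) of cold minus that of control) was 1.03 ± 0.08 (SE), a 2.05-fold higher level with a 95% interval of 1.81 to 2.32. The adjusted p of limma, over the 18863 genes that averaged 1 TPM or more in cold or in control, was 4.64e-05. An exact two-sided permutation test over the 70 assignments of the libraries gave p = 0.0286, the smallest it can give. Against the control mean, single cold libraries stood between 1.88-fold (cold 1) and 2.26-fold (cold 4). The spread within groups was alike, with coefficients of variation of 8.20% in cold and 7.73% in control.

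In cold libraries cirbp was among the most abundant transcripts of the tissue. Ranked by TPM within each library, cirbp was number 5 in cold 3 and number 7 in the other 3 cold libraries, against places 32 to 50 in control libraries. It made up 0.467% to 0.561% of all TPM in cold libraries and 0.224% to 0.270% in control libraries. Of the 145 genes averaging at least 1000 TPM, 8 (5.52%) were called, 4 higher and 4 lower, beside 36.7% of all tested genes. Among those 145 genes the log2 change of cirbp was exceeded by those of LOC109201896 and LOC109201893, whose differences did not pass limma (adjusted p = 0.384 and 0.368). Over all levels, 250 of the 2455 genes called higher had a larger log2 change than cirbp.

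**Figure D1:**
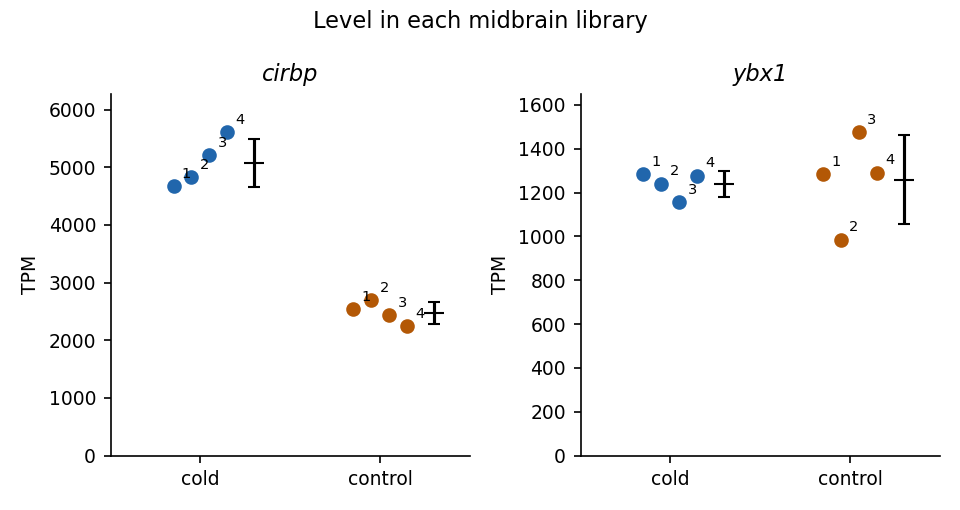
TPM of cirbp (left) and ybx1 (right) in each library, numbered by replicate, with cold left of control and black bars for mean ± SD (n = 4 each). All cold libraries lie at or above 4672 TPM and all control libraries at or below 2698 TPM for cirbp, whereas the cold values of ybx1 lie within the range of its control values.

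No difference was detected in ybx1, the other gene that matched a name looked for. Its level was 1285, 1241, 1157 and 1278 TPM in cold libraries 1 to 4, against 1284, 986, 1475 and 1291 TPM in control libraries 1 to 4. All 4 cold values lay inside the control range, whose ends were control 2 and control 3. The mean was 1240 ± 58.8 TPM in cold and 1259 ± 203 TPM in control (SD, n = 4 each), so that the coefficient of variation was 4.74% in cold and 16.1% in control. The log2 change was -0.01 ± 0.11 (SE), with limma adjusted p = 0.963 and an exact two-sided permutation p of 0.886. The 95% interval of the fold was 0.836 to 1.18. Leaving out single libraries moved the log2 change between -0.12 (without control 2) and 0.07 (without control 3), and no such fit passed. Its place in the library order was 119 to 131 in cold and 104 to 153 in control.

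The contrast between these genes was tested on their ratio within each library, which no scaling of a library can alter. The ratio of cirbp to ybx1 was 3.64, 3.89, 4.50 and 4.39 in cold libraries 1 to 4, against 1.98, 2.74, 1.65 and 1.74 in control libraries 1 to 4. The groups did not overlap, and control 2, the library with the lowest ybx1, had the highest control ratio. The log2 ratio was higher in cold by 1.04 ± 0.18 (SE; exact two-sided permutation p = 0.0286, the smallest possible with n = 4 each). This ratio and 1 further ratio below were chosen after the values were seen. The Benjamini-Hochberg adjusted p over both was 0.0286, an adjustment that does not account for that choice. The p of the cirbp to ybx1 ratio therefore adds nothing to the call of cirbp.

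**Figure D2:**
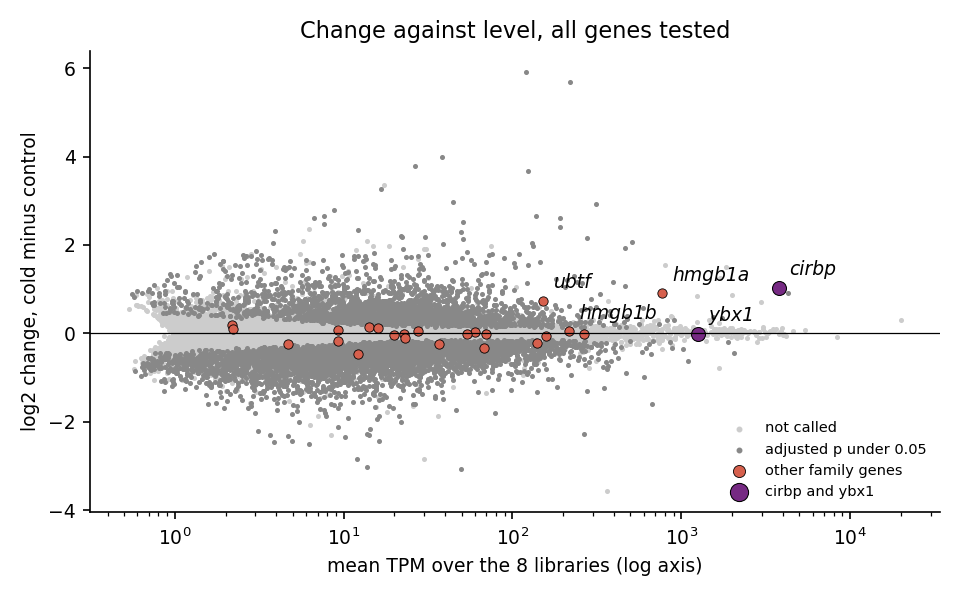
Change in log2(TPM + 1), cold minus control, against mean TPM over the 8 libraries (log axis) for the 18863 tested genes, with called genes in dark grey, relatives in red and cirbp and ybx1 in purple. Of the genes at 1000 TPM or more 5.52% are called, beside 36.7% of all tested genes. The change of cirbp lies at 1.03, while that of ybx1 lies at -0.01.

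Profiles most like that of cirbp were sought among 9339 other genes that have a symbol and average at least 10 TPM. The measure was the root mean square difference of log2(TPM + 1) over the 8 libraries, with each gene centred on its own mean. The nearest was zfand3, a zinc finger gene, at 0.0333. It measured 122 ± 13.3 TPM in cold and 57.9 ± 4.36 TPM in control (SD, n = 4 each). Next were rnf114, a ubiquitin ligase gene, at 0.0411 and ccnt1, which encodes the cyclin of the elongation factor P-TEFb, at 0.0604. The median candidate lay at 0.571 from cirbp. The level of rnf114 was 59.3 ± 5.42 TPM in cold and 28.7 ± 3.25 TPM in control, and that of ccnt1 was 35.7 ± 4.05 TPM in cold and 17.3 ± 1.27 TPM in control (SD, n = 4 each). For ybx1 the nearest were hadhb, of mitochondrial fatty acid oxidation (0.0661), p4hb, a protein disulfide isomerase gene (0.0672), and the homeobox gene pbx2 (0.0706), with a median candidate at 0.230. These likenesses rest on the same 8 libraries and are descriptive only. They reflect the size of the change as well as its shape, since the profiles were centred but not scaled.

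The families of ybx1 and the HMG proteins held 23 other tested genes described here, a count that leaves out some members not reported. No relative of cirbp was among these 23 genes. Of the 23, 2 rose and 4 fell, a called share of 26.1% beside the 36.7% of all tested genes. Their median log2 change was -0.01, against -0.09 over all tested genes. With libraries rescaled by the median of ratios, 3 rose and 2 fell, and of all called genes 47.4% in place of 64.5% were lower. When single libraries were left out, 2 rose every time and 2 to 4 fell, with 2 falls without cold 1, cold 2, control 1, control 2 or control 3.

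Both rises were among the HMG box genes, 2 of 13 tested, beside 13.0% of all tested genes called higher. The HMGB gene hmgb1a, whose product bends DNA, measured 983, 1122, 910 and 989 TPM in cold libraries 1 to 4, against 559, 506, 516 and 545 TPM in control libraries 1 to 4. Every cold library exceeded every control library, and cold 2 was the highest. The log2 change was 0.91 ± 0.07 (SE; limma adjusted p = 4.51e-05), a 1.88-fold higher level. The other rise was that of ubtf, which encodes an RNA polymerase I factor with several HMG boxes. Its level was 178, 188, 198 and 196 TPM in cold libraries 1 to 4, against 116, 132, 108 and 98.5 TPM in control libraries 1 to 4. These groups did not overlap either, and the log2 change was 0.74 ± 0.09 (SE; limma adjusted p = 0.000323).

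The copy hmgb1b did not share the rise of hmgb1a. It measured 214, 226, 220 and 223 TPM in cold libraries 1 to 4, against 212, 237, 219 and 188 TPM in control libraries 1 to 4. The groups overlapped, and the log2 change was 0.05 ± 0.07 (SE; limma adjusted p = 0.597). The ratio of hmgb1a to hmgb1b was 4.13 to 4.96 in cold and 2.13 to 2.90 in control libraries, without overlap. The log2 ratio differed by 0.86 ± 0.11 (SE; exact two-sided permutation p = 0.0286, n = 4 each, adjusted 0.0286 over both ratios). Since the pair was chosen after the values were seen, this p adds nothing to the call of hmgb1a. Reads of similar copies could have been divided between them in the counting, so the level of each copy is uncertain.

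**Figure D3:**
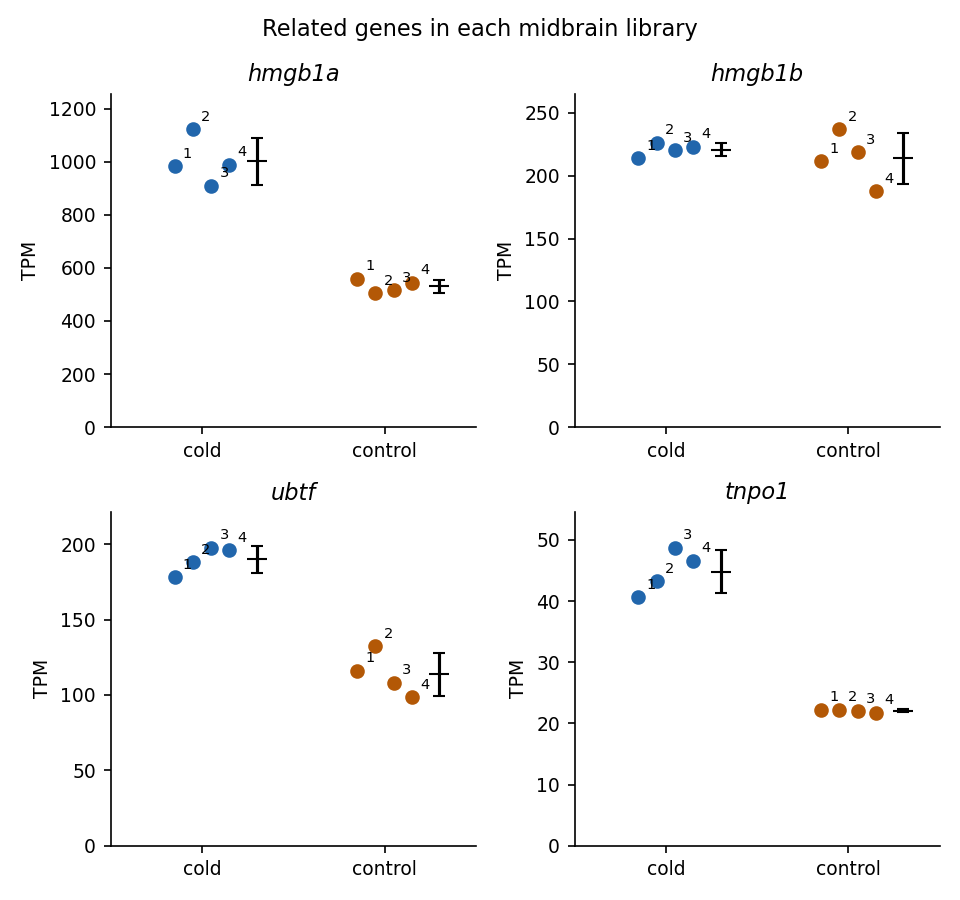
TPM of hmgb1a, hmgb1b, ubtf and tnpo1 in each library, numbered by replicate, with cold left of control and black bars for mean ± SD (n = 4 each). Cold and control values are separate for hmgb1a, ubtf and tnpo1 and overlap for hmgb1b.

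Of the 13 HMG box genes described here, tox3 fell. With both rises, the called share of these genes was 23.1%, beside 36.7% of all tested genes. The level of tox3, a neuronal transcription coregulator gene, was 10.1 ± 1.37 TPM in cold and 14.2 ± 1.32 TPM in control (SD, n = 4 each; log2 change -0.46 ± 0.10, limma adjusted p = 0.00796). The other 10 did not pass, and their log2 changes ran from -0.24 for hmgxb3 to 0.14 for tox4a. Among them were ssrp1, of the histone chaperone FACT (means of 61.0 TPM in cold and 59.4 TPM in control), and tfam, which packages mitochondrial DNA (22.1 ± 1.31 TPM in cold and 23.8 ± 2.68 TPM in control). Also there were hmg20b, hmgxb4, tox, tox2 and tox4. Of these, tox4a passed after median-of-ratios scaling (adjusted p = 0.0287) and hmgxb3 (4.21 ± 0.275 TPM in cold and 5.16 ± 0.375 TPM in control) passed when limma was fitted without trend (0.0281).

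The HMGN and HMGA genes, of nucleosome-binding and AT-hook proteins, numbered 6, of which hmgn6 alone passed the test. That called share was 16.7%, beside 36.7% of all tested genes. The most abundant, hmgn1b, measured 263 ± 17.1 TPM in cold and 265 ± 10.9 TPM in control (SD, n = 4 each; log2 change -0.01 ± 0.06, limma adjusted p = 0.925). Its copy hmgn1a had 53.9 ± 5.02 TPM in cold and 53.9 ± 1.67 TPM in control, and hmgn3 had 155 ± 11.0 TPM in cold and 161 ± 8.77 TPM in control. Neither passed, nor did hmga1 (16.6 ± 1.27 TPM in cold and 15.2 ± 1.95 TPM in control) or hmga2 (2.35 ± 0.419 TPM in cold and 2.10 ± 0.206 TPM in control). The level of hmgn6 fell to 129 ± 7.25 TPM in cold, against 151 ± 11.9 TPM in control (log2 change -0.22 ± 0.07, limma adjusted p = 0.0320). Cold and control values of hmgn6 overlapped at cold 3 (137 TPM) and control 4 (135 TPM). The call was lost without cold 1, cold 2, control 1, control 2 or control 3 (limma adjusted p = 0.0634 to 0.0819) and under median-of-ratios scaling (0.173).

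Among the other cold-shock-domain genes, the paralogs csdc2a and csdc2b, which encode RNA-binding proteins of the brain in mammals, fell. They were 2 of 4 tested, beside 23.6% of all tested genes called lower, and counts this small do not describe a family. The level of csdc2a was 61.1, 54.9, 64.0 and 62.2 TPM in cold libraries 1 to 4, against 77.6, 80.4, 75.8 and 70.3 TPM in control libraries 1 to 4. The groups did not overlap, and the log2 change was -0.32 ± 0.06 (SE; limma adjusted p = 0.00484). For csdc2b the means were 33.6 ± 3.32 TPM in cold and 39.5 ± 2.23 TPM in control (SD, n = 4 each; log2 change -0.23 ± 0.08, limma adjusted p = 0.0444). Cold and control values of csdc2b overlapped, with cold 3 (38.3 TPM) above control 2 (37.7 TPM) and control 3 (37.6 TPM). Its call was lost without cold 1, cold 2, cold 4 or any single control library (limma adjusted p = 0.0594 to 0.105) and under median-of-ratios scaling (0.171). The genes carhsp1 (19.5 ± 1.23 TPM in cold and 20.3 ± 3.73 TPM in control) and lin28aa (2.39 ± 0.608 TPM in cold and 1.95 ± 0.310 TPM in control) did not pass. The germ-cell Y-box gene ybx2 averaged 0.438 TPM in cold and 0.525 TPM in control, and lin28b averaged 0.815 TPM in cold and 0.673 TPM in control. Both were too low to be tested.

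**Figure D4:**
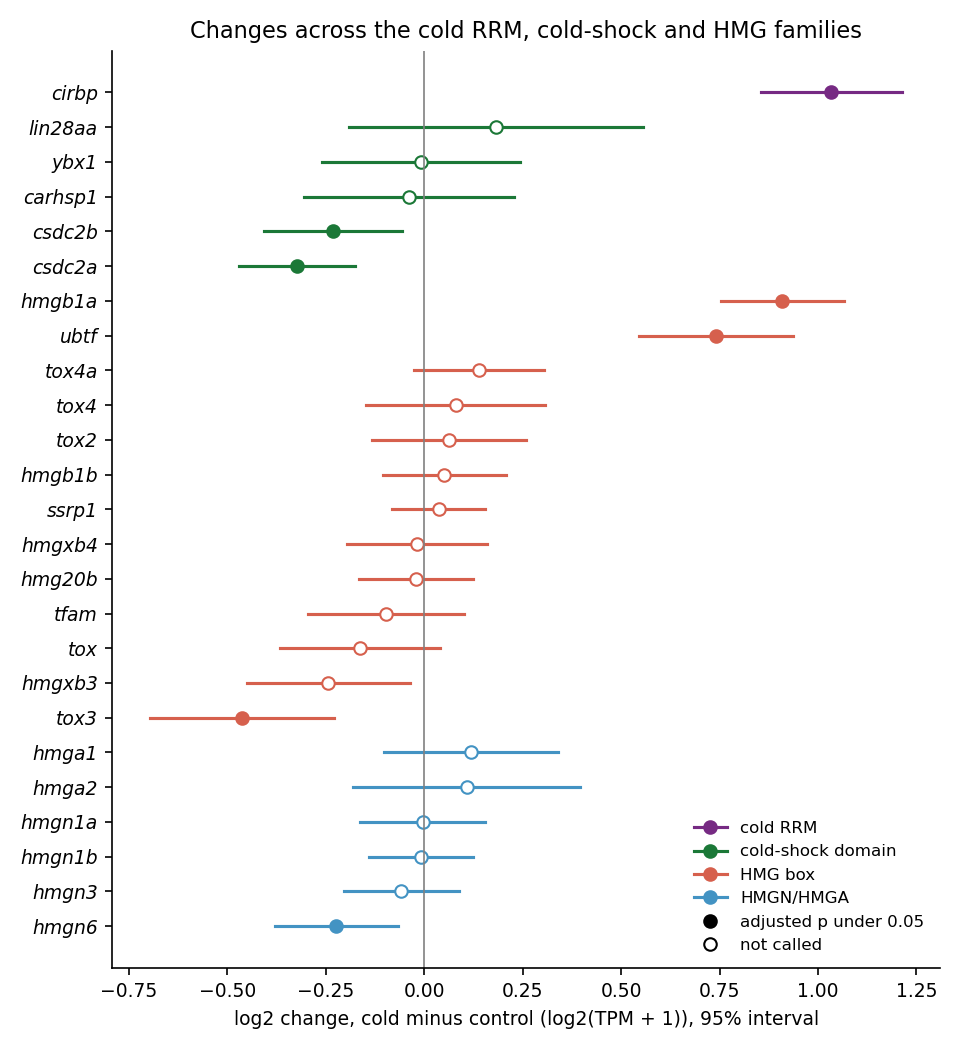
Change in log2(TPM + 1), cold minus control, with its 95% interval for the 25 tested genes of the families described here, cirbp and ybx1 included, ordered within each family. Filled points passed limma at an adjusted p under 0.05; the 3 points to the right of 0.5 are cirbp, hmgb1a and ubtf.

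Of 12 tested genes tied to CIRBP or to cooling in mammalian cells, 4 rose, 2 fell and 6 did not pass. The called share was 50.0%, beside 36.7% of all tested genes. This list, like the other lists here, was chosen with earlier results of these data known. Its share is therefore no measure of how such genes respond. The largest rise was that of tnpo1, the gene of transportin 1, a nuclear import receptor of CIRBP. It had 40.7, 43.3, 48.7 and 46.6 TPM in cold libraries 1 to 4, against 22.2, 22.2, 22.0 and 21.7 TPM in control libraries 1 to 4. The control values were nearly equal and lay far below the lowest cold value, with a log2 change of 0.99 ± 0.07 (SE; limma adjusted p = 2.34e-05). In human cells CIRBP binds the transcript of rpa2, a DNA replication and repair gene, which measured 31.0 ± 2.91 TPM in cold and 22.7 ± 2.09 TPM in control (SD, n = 4 each; limma adjusted p = 0.00538). The level of atr, a DNA damage kinase gene, was 3.20 ± 0.394 TPM in cold and 1.98 ± 0.136 TPM in control (limma adjusted p = 0.00922). The gene sp1, of a transcription factor that acts on the mouse Cirbp promoter, had 6.37 ± 0.537 TPM in cold and 4.92 ± 0.683 TPM in control (limma adjusted p = 0.0485). Its call was lost without any cold library or without control 1, control 2 or control 3 (limma adjusted p = 0.0543 to 0.116).

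The falls among these genes were those of clk4a and tial1. The level of clk4a, of a kinase that phosphorylates splicing factors, was 160, 181, 247 and 245 TPM in cold libraries 1 to 4, against 533, 464, 505 and 451 TPM in control libraries 1 to 4. The groups were far apart, and the log2 change was -1.25 ± 0.14 (SE; limma adjusted p = 0.000280). The stress granule gene tial1 measured 28.9 ± 0.496 TPM in cold and 40.0 ± 1.80 TPM in control (SD, n = 4 each; log2 change -0.45 ± 0.05, limma adjusted p = 0.000327). Its relative tia1 measured 41.6 ± 3.81 TPM in cold and 36.8 ± 2.46 TPM in control and did not pass. The other genes that did not pass were prmt1, which encodes the methyltransferase of CIRBP (211 ± 11.2 TPM in cold and 219 ± 6.49 TPM in control), g3bp1, g3bp2, srsf5 and srsf5b. Of these, tia1 (adjusted p = 0.0292) and srsf5 (0.00926) passed after median-of-ratios scaling.

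Of 9 tested genes of histone chaperones and nucleosome assembly, which share the substrate of the HMG proteins, 1 rose and 2 fell. That called share of 33.3% lay near the 36.7% of all tested genes. The nucleophosmin copy npm1b fell to 23.5 ± 2.65 TPM in cold, against 38.9 ± 1.88 TPM in control (SD, n = 4 each; log2 change -0.71 ± 0.09, limma adjusted p = 0.000376). Its copy npm1a measured 31.6 ± 2.33 TPM in cold and 29.6 ± 4.91 TPM in control (limma adjusted p = 0.508). The histone chaperone gene seta measured 93.5 ± 3.52 TPM in cold and 83.7 ± 1.58 TPM in control (limma adjusted p = 0.0259). That call was lost without cold 2, cold 3, control 2, control 3 or control 4 (limma adjusted p = 0.0563 to 0.0678). Of a pair of copies named anp32e, of an H2A.Z chaperone, LOC100707939 measured 46.8 ± 4.20 TPM in cold and 61.0 ± 8.21 TPM in control (limma adjusted p = 0.0210). Its call was lost without cold 1, cold 3, control 1 or control 3 (limma adjusted p = 0.0512 to 0.0589) and under median-of-ratios scaling (0.0638), and the other copy did not pass.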

How the data were processed

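Midbrain polyadenylated RNA was sequenced in 4 cold and 4 control libraries, grouped by the sample titles. TRIzol extraction, poly(dT) capture and a TruSeq library kit were used, per the labels' protocols, and reads were processed with HISAT2, per the submitters' processing notes. The sources used here do not give the counting program, genome build, annotation or strand handling. The authors deposited 1 list of values per library, taken as TPM since each list sums to 1000000. Scaling by library total alone would give that sum too, so scaling by transcript length was not checked. Depth is unknown in either case, and no count test could be used.

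The comparison of cold with control used limma 3.58.1 (R 4.3.3) with trend on log2(TPM + 1), over the 18863 genes that averaged 1 TPM or more in cold or in control. Tests were two-sided with Benjamini-Hochberg adjustment, and genes were called at an adjusted p under 0.05. On simulated data, limma was run on 18863 genes with 200 genes of at least 10 TPM changed. It recovered 62.7% of 1.5-fold, 92.5% of 2-fold and 97.0% of 4-fold changes, and 2.33% of calls were false. In the data 6914 genes were called, a far larger share than was changed in the simulation. These rates therefore do not carry over to the calls reported here. The genes cirbp and ybx1 were also tested by exact permutation, as were both ratios. Other single genes were tested by limma alone.

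Names of LOC identifiers came from the reference gene table of assembly O_niloticus_UMD_NMBU, where 19368 of 19370 were found and 6153 had a symbol. It holds no product descriptions, so copies could not be sought by description. The genes and lists were chosen with earlier results of these data known. Genes named are cirbp and ybx1, tested genes of the families, called partner genes, the 3 nearest profiles, and leading markers; others were chosen after their values were seen. Some genes that the family lists took in are not reported here and were left out of the list counts. Alternatives were another pseudocount (0.1), no filter, median-of-ratios scaling, no trend, a replicate block, and leaving out libraries. No sequence is shown. Of the family names looked for, those without a match, among them rbm3, were not analysed here.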

Additional observations from a re-analysis of the deposited data

Results flagged for a closer look

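In 3 of 92 groups of 4 libraries (46 genes, cold and control), the gap between the farthest library and its nearest neighbour was a larger share of the group's range than Dixon's 95% critical value allows. Chance alone flags about 1 in 20 groups. In cold 2, lin28aa stood at 1.48 TPM, below 2.62 to 2.79 TPM in the other cold libraries. Also in cold 2, hmga2 stood at 2.98 TPM, above 2.13 to 2.15 TPM in the others. In cold 1, tox3 stood at 12.1 TPM, above 9.16 to 9.52 TPM in the other cold libraries. Neither cirbp nor ybx1 had such a library.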

How the results depend on the processing

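In the 14 alternatives run cirbp was called higher, with log2 changes of 0.99 to 1.08 when single libraries were left out and 1.13 after median-of-ratios scaling. The change of ybx1 was near 0 and its sign was not stable. It was 0.0905 after median-of-ratios scaling and 0.00842 without control 4 and cold 2 together, and it ran from -0.121 to 0.0731 when single libraries were left out (adjusted p = 0.225 to 0.974). Median-of-ratios scaling shifted the median of all genes by 0.09 and moved the calls among the 44 tested family and partner genes described here to 11 higher and 5 lower, in place of 7 and 8. Without single libraries those counts were 5 to 6 and 5 to 7 (5 lower without cold 1, control 1 or control 3), and with a replicate block they were 5 and 5. Median-of-ratios scaling also turned the sign of genes that passed in neither fit, to 0.0242 for supt16h, 0.0267 for pbx2, 0.0403 for hmgn3, 0.0488 for prmt1, 0.0553 for carhsp1, 0.0761 for hmgxb4, 0.0773 for hmg20b, 0.0900 for hmgn1b, 0.0915 for hadhb, 0.0927 for hmgn1a and 0.0955 for nap1l1. Without control 4 and cold 2 together the sign turned to -0.0207 for hmgb1b, -0.0241 for hmga2, 0.0150 for nap1l1, 0.0231 for hadhb and 0.0783 for carhsp1. When single libraries were left out the ranges crossed 0 for hmgb1b (-0.00892 to 0.102), carhsp1 (-0.104 to 0.0672), hmg20b (-0.0477 to 0.0275), hmgxb4 (-0.0734 to 0.0353), hmgn1a (-0.0581 to 0.0419), hmgn1b (-0.0445 to 0.0246), nap1l1 (-0.0249 to 0.0293), hadhb (-0.0812 to 0.0299), p4hb (-0.0668 to 0.0554) and tox4 (-0.000157 to 0.129). The cause was not tested. Calls near the threshold were lost without the filter (csdc2b 0.0563, sp1 0.0906), without trend (csdc2b 0.0621, hmgn6 0.0570, seta 0.0600) and without control 4 and cold 2 together (csdc2b 0.162, sp1 0.0505, seta 0.107), all limma adjusted p. No label says whether the replicate numbers shared by the groups mark a shared tank, day or fish. Same-numbered libraries deviated from their group means with correlations of -0.23 to 0.05, and no cold library correlated best with its own number. These correlations cannot decide whether same-numbered libraries shared a source, because centring on so few libraries forces the deviations within a group to cancel. With a replicate block 5642 genes were called, in place of 6914, and cirbp kept its log2 change of 1.03 (limma adjusted p = 0.00233), while csdc2b (0.104), hmgn6 (0.0750), sp1 (0.0522), seta (0.0841) and anp32e LOC100707939 (0.0704) lost theirs. TPM without depth gives no counting error for low genes such as hmga2 or atr.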

Other observations

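Among the 145 genes averaging at least 1000 TPM, the 4 called higher were cirbp, mt2, ptmab and ubb, named after their values were seen. The metallothionein gene mt2, whose product binds zinc and copper, measured 5575 ± 603 TPM in cold and 2980 ± 489 TPM in control (SD, n = 4 each; log2 change 0.91, limma adjusted p = 0.000650). The prothymosin gene ptmab, of a small acidic nuclear protein, measured 1751 ± 193 TPM in cold and 1340 ± 58.5 TPM in control (log2 change 0.38, limma adjusted p = 0.00574). The polyubiquitin gene ubb measured 1964 ± 147 TPM in cold and 1528 ± 24.8 TPM in control (log2 change 0.36, limma adjusted p = 0.00199). The 4 called lower, also named after their values were seen, were LOC100709328, tmsb4x, LOC100703003 and LOC100697455. Of these, LOC100709328 fell most, with 866 ± 57.8 TPM in cold and 1327 ± 106 TPM in control (log2 change -0.61, limma adjusted p = 0.000361). The gene tmsb4x, of an actin-binding thymosin, measured 1746 ± 89.0 TPM in cold and 2364 ± 143 TPM in control (log2 change -0.44, limma adjusted p = 0.000950). The log2 changes of LOC100703003 and LOC100697455 were -0.34 and -0.18.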
